A study of Mus musculus with 6 samples.

Results

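SNARE proteins, synaptotagmins and synaptic vesicle proteins form the membrane fusion machinery of a secretory cell, and the genes for 56 of them were followed in CAD cells treated with siRNA against a circular RNA. The members were chosen by gene symbol, and all 56 had a row among the 24318 genes of the table. They were described in 3 classes: 28 genes of synaptic vesicles and exocytosis, 24 SNARE genes of the Golgi, endoplasmic reticulum (ER) and endosomes, and 4 genes for NSF and its adaptors. CAD is a mouse neuronal line of catecholaminergic type. The siCircGigyf2 group (treatment label si circGIGYF2) held 3 libraries, and the siNC group (si NC, the control siRNA) held 3. CircGigyf2 is a circular RNA of the Gigyf2 gene, and the comparison asks which RNAs differ in cells that received the siRNA against it.

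A SNARE complex forms when a vesicle SNARE zips up with SNAREs of the target membrane and pulls the membranes together. At the synapse and on dense-core granules this complex is made of synaptobrevin (Vamp), syntaxin 1 and SNAP-25. Several synaptotagmins sense calcium, complexins clamp and assist the complex, Munc13 and Munc18 proteins guide its assembly, and synapsins hold vesicles in clusters. Other syntaxins and Vamp proteins serve traffic between the ER, Golgi, endosomes and lysosomes, and the ATPase NSF with its SNAP adaptors takes spent complexes of all kinds apart. Catecholaminergic cells release their transmitter from granules by this machinery.

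Expression was measured as FPKM, a fragment count scaled to transcript length and to all mapped fragments, in RNA depleted of ribosomal RNA. These values are relative to the other RNAs of a library, and in bulk libraries fewer cells of a type and less RNA per cell cannot be told apart. The level of circGigyf2 itself was not analysed here. Sequencing depth was not given, but steps of a single fragment among low values put the siCircGigyf2 libraries at 0.802 to 0.914 times, and siNC replicates 2 and 3 at 0.979 and 0.953 times, the depth of siNC replicate 1. Of the 12 markers set for CAD cells, 11 reached the level for testing, and by the test described next 2 rose and 5 fell. The summed FPKM of the 12 was 1306 to 1349 with siCircGigyf2 and 1406 to 1435 with siNC. Most of each sum was the granule protein gene Chgb, at 979 ± 17.3 FPKM with siCircGigyf2 and 1081 ± 20.6 FPKM with siNC (SD, n = 3). Chgb fell (limma adjusted p = 0.00938), so the lower sum is no measure of the markers in general. Hand2 and Phox2a, transcription factors of the sympathetic lineage, lay at 169 ± 1.88 and 59.3 ± 4.90 FPKM with siCircGigyf2 and 149 ± 3.14 and 68.3 ± 3.20 FPKM with siNC (SD, n = 3), and of these Hand2 rose and Phox2a fell. The catecholamine enzyme genes Th and Dbh were low, at 3.28 ± 0.474 and 1.14 ± 0.194 against 4.24 ± 0.662 and 1.77 ± 0.404 FPKM, and Dbh fell. The summed FPKM of 5 astrocyte, 5 microglial and 5 oligodendrocyte markers stayed at or below 1.19 in each library, and 5 fibroblast markers summed to 3.70 to 4.13 FPKM with siCircGigyf2 and to 3.40 to 4.10 FPKM with siNC. Several markers of these lists were at 0 in all libraries, among them Aldh1l1, Itgam, Mag and Col3a1. The fibroblast marker Col1a1 passed the test (1.47 ± 0.198 against 0.924 ± 0.116 FPKM, limma adjusted p = 0.018), and the part of these markers in the results was not tested.

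The test was a linear model with moderated variances (limma) on log2(FPKM + 1), for the 11420 genes with a mean of at least 1 FPKM. A gene is said to have risen or fallen when its Benjamini-Hochberg adjusted p over all these genes was below 0.05, and a log2 difference is siCircGigyf2 minus siNC. By this rule 38.2% of all genes tested differed, 19.5% higher and 18.7% lower, and for 51.0% every library of one group lay on the same side of every library of the other. Of the 56 members 49 were tested, and 15 rose, 7 fell and 27 did not pass (44.9% called, not far from the 38.2% of all genes). The groups did not overlap for 25 of the 49. Members that rose or fell by at least 0.2 on the log2 scale numbered 18 (36.7%), against 25.5% of all genes tested. The classes had different make-ups. Of the 22 exocytosis and vesicle genes tested, 12 rose and 0 fell, with a median log2 difference of 0.19. Of the 23 Golgi, ER and endosomal SNARE genes, 3 rose and 5 fell, with a median of -0.05, and of the 4 genes for NSF and adaptors, 2 fell and 0 rose. The shares called were 54.5% for exocytosis, 34.8% for the Golgi, ER and endosomal class and 50% for NSF and adaptors. The median over all genes tested was 0.00035. Whether the classes differ from each other was not tested.

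**Figure D1:**
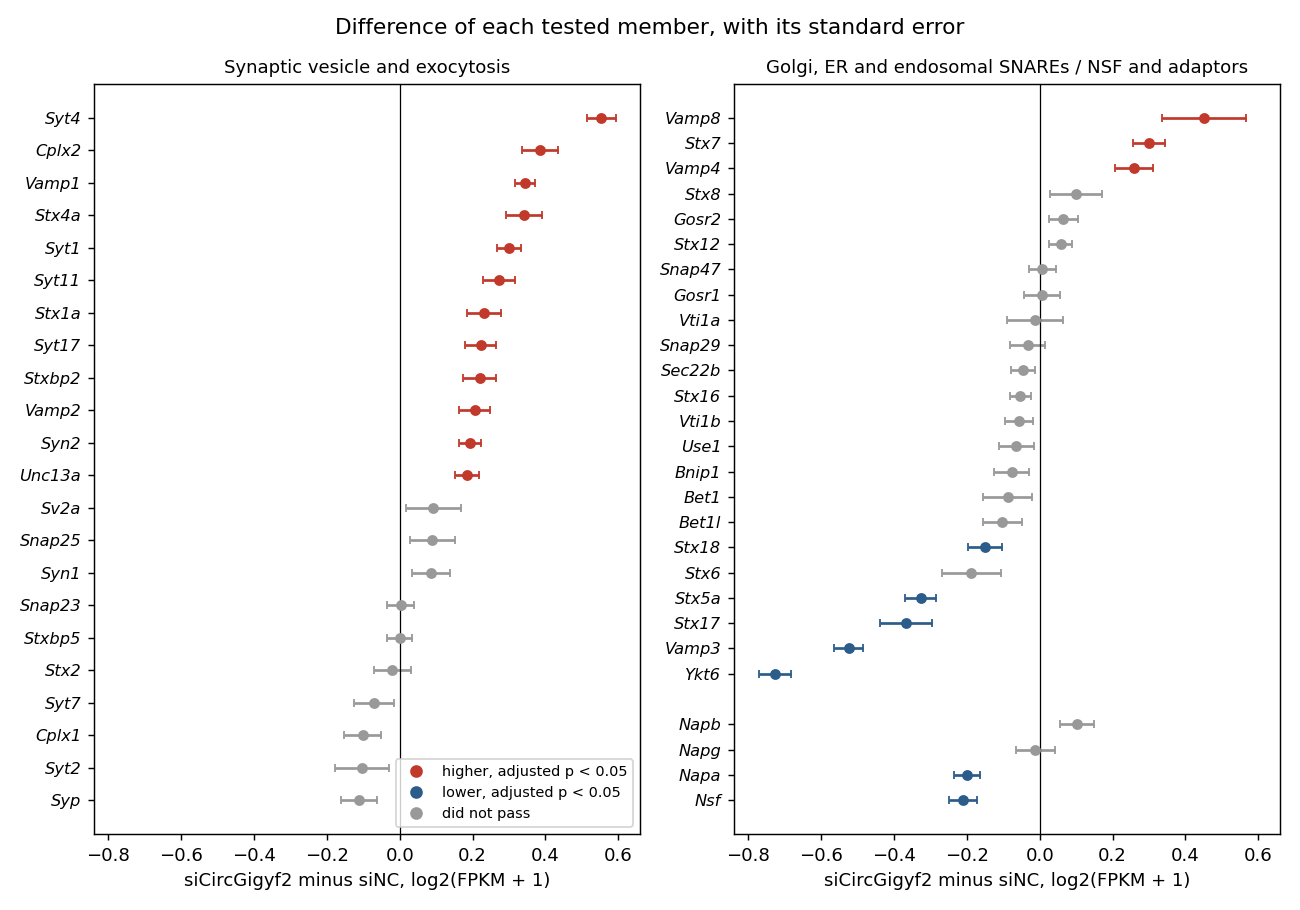
Log2 difference (siCircGigyf2 minus siNC, log2(FPKM + 1) scale) of the 49 members tested, with bars of 1 standard error, exocytosis and vesicle genes at left and Golgi, ER, endosomal and NSF genes at right. The 12 coloured points at left all lie to the right of 0, and those at right run from -0.73 for Ykt6 to 0.45 for Vamp8.

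The member with the lowest difference, Ykt6, carries in its annotated 3' UTR the word GCCTACA, which earlier work on these same values had picked out because genes that hold it tended to be lower; finding it in a member that fell is therefore no independent evidence. The word is shown because it separates Ykt6 and Stx18 from the 47 other members tested. Of 10584 tested genes with a 3' UTR to search, 6.48% held it (265 lower and 90 higher, median log2 difference -0.10), and of the 49 members 2 did (4.08%). Both fell. The 8-base form GCCTACAA occurred in none of the 49. The windows of 30 bases below are from GENCODE M21 transcripts (GRCm38, plus strand), all in 3' UTRs, with the word in capitals. Ykt6 has the word at bases 1056 and 1553 of a 3' UTR of 1736 bases, at chr11:5967089-5967118 and chr11:5967586-5967615. Stx18 has it at base 760 of 1407, at chr5:38137107-38137136.
Ykt6, first site: ctgcgagcacaGCCTACAtggtgaatccag
Ykt6, second site: aggtaacctttGCCTACAtatggctgtcct
Stx18: tatagcacatgGCCTACAtctgtgtacaga
The other 5 members that fell (Vamp3, Stx17, Stx5a, Nsf and Napa) did not hold the word in the transcript searched. One further coding transcript, of Unc13a, holds it, although the transcript searched for that gene does not, and Unc13a rose.

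The promoters of Ykt6, the member with the largest fall, and of Vamp1, which had a log2 rise of 0.34, are shown to let a gene of each direction be compared at its start. They come from RefSeq (GRCm38.p6, plus strand), 300 bases around the start of the gene, and capitals mark GGGCGG, a GC box read on either strand. Ykt6 lies at chr11:5955508-5955807 with 69.7% G and C, and Vamp1 at chr6:125215331-125215630 with 51.7%, and each holds the word once. This pair does not stand for the directions. The share of G and C ran from 44% (Syt1) to 76% (Vamp4) in promoters of members that rose. In promoters of members that fell it ran from 53.7% (Stx5a) to 69.7% (Ykt6), within that range.
Ykt6 promoter: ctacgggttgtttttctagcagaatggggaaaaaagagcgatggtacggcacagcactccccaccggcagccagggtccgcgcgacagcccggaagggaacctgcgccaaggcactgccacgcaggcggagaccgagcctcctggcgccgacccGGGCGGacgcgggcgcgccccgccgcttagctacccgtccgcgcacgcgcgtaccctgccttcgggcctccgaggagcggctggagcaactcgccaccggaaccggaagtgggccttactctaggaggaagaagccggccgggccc
Vamp1 promoter: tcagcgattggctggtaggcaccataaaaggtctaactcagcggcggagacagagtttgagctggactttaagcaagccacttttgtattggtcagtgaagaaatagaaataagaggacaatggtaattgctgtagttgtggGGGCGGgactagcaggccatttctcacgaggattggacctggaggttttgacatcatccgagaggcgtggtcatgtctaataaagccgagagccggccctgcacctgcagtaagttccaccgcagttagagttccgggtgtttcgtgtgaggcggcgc
RefSeq promoters were at hand for 45 of the 56 members, 58 in all. Counted by gene, with a match in any of its promoters, GGGCGG was found for 9 of the 12 members that rose and had a promoter and for 5 of the 6 that fell and had one, where 71.1% of 8702 tested genes hold it. CACGTG, an E-box, was found for 2 of 12 and 2 of 6 (11.9% of the tested genes), and TCAGCACC, a stretch of the site bound by the neuronal repressor REST, for 1 of 12 and 1 of 6 (1.99%), on either strand. Counted by promoter, the words occur in 35, 7 and 3 of the 58 promoters of members. In the 11124 promoters of tested genes they occur in 64.2%, 10% and 1.64%. Among all 32851 promoters of the same length, which include those of genes not tested, the shares are 35.7%, 7.15% and 1.65%. Each word was counted whether or not it overlapped another, and a match is not a bound site.

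The synaptotagmins are a family of calcium sensors and relatives that lack that role. Of their 6 member genes tested 4 rose and 0 fell, where 19.5% of all genes tested were higher and 18.7% lower. Syt4 encodes a synaptotagmin of secretory granules that does not act as a calcium trigger. It had 109.7, 104 and 100.4 FPKM in siCircGigyf2 libraries, against 72.6, 68.8 and 71.8 FPKM in siNC libraries. All 3 libraries with the circGigyf2 siRNA lay far above the controls, and the log2 difference of 0.55 (SE 0.0387, limma adjusted p = 2.90e-05) was the highest among the members. Syt1, the sensor of fast release, was listed at 136, 129 and 126 FPKM with siCircGigyf2, against 104, 106 and 107 FPKM with siNC, a log2 difference of 0.30 (SE 0.0332, limma adjusted p = 0.000206). It was the member of highest mean level, and its groups did not overlap.

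The less abundant synaptotagmins that passed were atypical ones. Syt11, which does not bind calcium, stood at 21.6, 21.3 and 20.8 FPKM after the circGigyf2 siRNA, against 18.4, 16.7 and 17.2 FPKM after control siRNA (log2 difference 0.27, SE 0.0435, limma adjusted p = 0.00136). Syt17, which lacks the transmembrane segment of the classical family members, gave 18.5, 18.8 and 19.8 FPKM with siCircGigyf2 and 16.8, 15.9 and 15.8 FPKM with siNC (log2 difference 0.22, SE 0.0426, limma adjusted p = 0.00348). For both genes the lowest siCircGigyf2 library was above the highest siNC library. Syt7, the slow sensor, had a log2 difference of -0.07 (limma adjusted p = 0.347) and Syt2, a fast sensor of low level here, -0.10 (limma adjusted p = 0.295). Neither passed, although the Syt2 libraries of the groups did not overlap. Syt5, Syt9, Syt12 and Syt13 were below the level for testing. Summed over these 10 genes, which leave out Syt6 and Syt14 of the wider family, FPKM was 277 to 294 in siCircGigyf2 libraries and 217 to 222 in siNC libraries, and Syt1 and Syt4 made up most of it. Syt6, named after its values were seen, averaged 6.15 ± 0.374 FPKM with siCircGigyf2 and 6.39 ± 0.251 FPKM with siNC (SD, n = 3) and did not pass (log2 difference -0.05, limma adjusted p = 0.563), and Syt14 is given with the pathway genes.

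Of the core SNAREs of the plasma membrane, syntaxin 1 and synaptobrevin genes rose and Snap25 did not pass. Stx1a, the neuronal syntaxin, had 13.9, 14.7 and 14.3 FPKM in siCircGigyf2 libraries, against 11.7, 12.8 and 11.7 FPKM in siNC libraries (log2 difference 0.23, SE 0.0476, limma adjusted p = 0.00502). Vamp2, synaptobrevin 2, had 33.6, 32.7 and 32.1 FPKM with siCircGigyf2, against 29.4, 28.8 and 26.8 FPKM with siNC (log2 difference 0.21, SE 0.0418, limma adjusted p = 0.00476). Neither gene's groups overlapped. Snap25 was listed at 123, 103 and 122 FPKM with siCircGigyf2 and 111, 110.3 and 104 FPKM with siNC, and did not pass (log2 difference 0.09, SE 0.0628, limma adjusted p = 0.287). Its siCircGigyf2 replicate 2 was the lowest of the 6 libraries, and without that library the log2 difference was 0.17 and passed (limma adjusted p = 0.00845).

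Vamp1, synaptobrevin 1, was at a higher level per length than Vamp2 in every library. It stood at 88.8, 87.4 and 85.2 FPKM after the circGigyf2 siRNA, against 68.8, 68.4 and 68.02 FPKM after control siRNA. The libraries within each group were close together and the groups lay well apart (log2 difference 0.34, SE 0.0283, limma adjusted p = 5.33e-05). Stx4a, a plasma membrane syntaxin of regulated and constitutive secretion, gave 28.9, 29.7 and 29.9 FPKM with siCircGigyf2 and 22.97, 24.8 and 21.6 FPKM with siNC (log2 difference 0.34, SE 0.0489, limma adjusted p = 0.000776), with no overlap. Stx2, a further plasma membrane syntaxin, and Snap23, the ubiquitous relative of Snap25, had log2 differences of -0.02 and 0.0031, and did not pass. Stx3 was at most at 0.332 FPKM in any library and was not tested.

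Among the proteins that steer SNARE assembly, the priming factor gene Unc13a (Munc13-1), Stxbp2 and Cplx2 rose. Stxbp2, a Munc18 protein that pairs with syntaxins of secretory cells, had 10.3, 10.7 and 10.4 FPKM in siCircGigyf2 libraries, against 8.77, 8.60 and 9.19 FPKM in siNC libraries (log2 difference 0.22, SE 0.0455, limma adjusted p = 0.00516). Unc13a averaged 34.2 ± 0.394 FPKM with siCircGigyf2 and 29.96 ± 0.669 FPKM with siNC (SD, n = 3), a log2 difference of 0.18 (limma adjusted p = 0.00216). Strand handling was not given, and its exons overlap those of Colgalt1 on the other strand, which fell (log2 difference -0.13, limma adjusted p = 0.00927). Syn2 overlaps Timp4 (2.86 FPKM with siCircGigyf2, 2.72 FPKM with siNC), Stx18 overlaps Nsg1 (1.26 and 0.992 FPKM) and Syt4 overlaps Gm26658 in the same manner, and reads of such pairs may not be separated. Stxbp5, tomosyn, a brake on SNARE assembly, was level at 21.8, 21.7 and 21.8 FPKM with siCircGigyf2 and 22.1, 21.2 and 22.01 FPKM with siNC, and did not pass.

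The complexin genes did not go together. Cplx2 had 21.1, 22.1 and 24.03 FPKM with siCircGigyf2, against 16.6, 17.2 and 16.8 FPKM with siNC (log2 difference 0.39, SE 0.0492, limma adjusted p = 0.000426), and its groups lay apart. Cplx1 averaged 14.3 ± 0.785 FPKM with siCircGigyf2 and 15.4 ± 0.620 FPKM with siNC, overlapped and did not pass (log2 difference -0.10, limma adjusted p = 0.14). The difference between these paralogs was not tested.

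Proteins of the vesicle membrane and its surface were mixed as well. Syn2, a synapsin, averaged 63.8 ± 0.353 FPKM with siCircGigyf2 and 55.7 ± 1.51 FPKM with siNC (SD, n = 3) and rose (log2 difference 0.19, limma adjusted p = 0.00129). Syn1, its relative, had 18.1, 16.1 and 16.7 FPKM in siCircGigyf2 libraries, against 16.2, 15.04 and 16.4 FPKM in siNC libraries, which overlapped, and it did not pass (log2 difference 0.09, limma adjusted p = 0.231). Syp, synaptophysin, the classical vesicle marker, had 39.5, 43.3 and 39.01 FPKM with siCircGigyf2, against 44.2, 41.5 and 46.1 FPKM with siNC, and did not pass either (log2 difference -0.11, SE 0.0505, limma adjusted p = 0.112). Most siCircGigyf2 values of Syp lay under the controls, and without siCircGigyf2 replicate 2, which overlapped them, it was lower by the test (log2 difference -0.16, limma adjusted p = 0.033). Sv2a, a vesicle glycoprotein, averaged 2.12 ± 0.0985 FPKM with siCircGigyf2 and 1.92 ± 0.142 FPKM with siNC and did not pass, and Sv2b had a value above 0 in only 1 library, siCircGigyf2 replicate 1. Summed over its 28 genes the exocytosis class reached 822 to 850 FPKM in siCircGigyf2 libraries and 710.2 to 721 FPKM in siNC libraries.

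**Figure D2:**
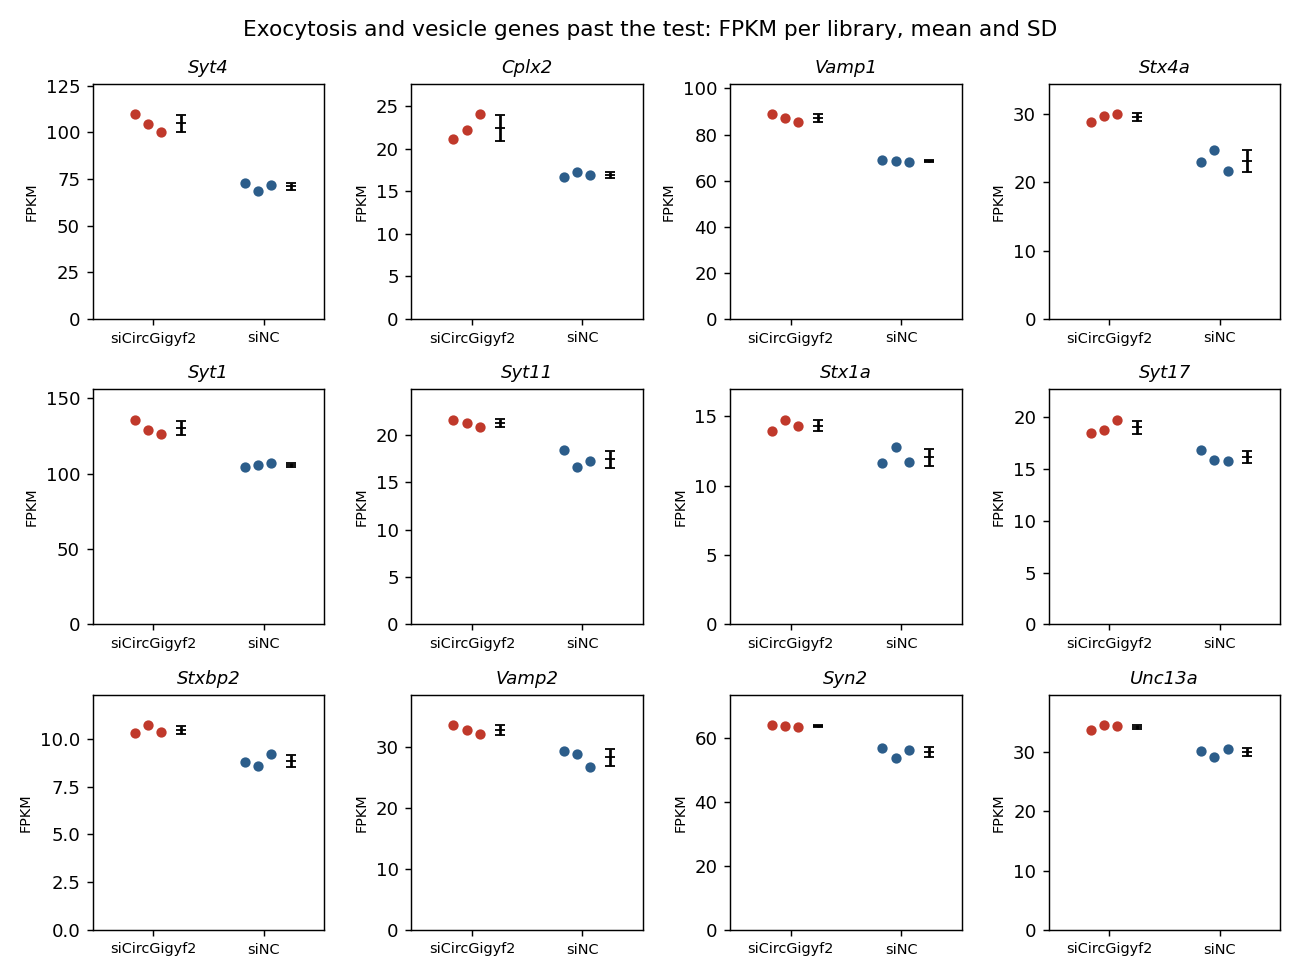
FPKM in each library (points) of the 12 exocytosis and vesicle genes that rose, siCircGigyf2 at left and siNC at right in each panel, with the mean and SD of 3 libraries beside the points; axes start at 0. In each panel the 3 siCircGigyf2 points lie above the 3 siNC points, from Syt4 (ratio of means 1.48) to Unc13a (1.14).

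The Golgi, ER and endosomal SNARE genes were led by a fall of Ykt6. This lipid-anchored SNARE, which cycles between cytosol and membranes and works within the Golgi and on autophagosomes, had 34.4, 37.8 and 34.04 FPKM in siCircGigyf2 libraries, against 60.9, 57.4 and 59.4 FPKM in siNC libraries. The ratio of means was 0.598, the log2 difference -0.73 (SE 0.0445, limma adjusted p = 1.79e-05), and the groups were far apart. Stx5a, the Golgi syntaxin that joins Ykt6 in one complex and Sec22b in another, had 23.2, 24.9 and 24.6 FPKM with siCircGigyf2, against 32.00, 29.5 and 30.4 FPKM with siNC (log2 difference -0.33, SE 0.0424, limma adjusted p = 0.000468). Here too no libraries overlapped. The remaining SNAREs of the complex within the Golgi, Gosr1 and Bet1l, did not pass (log2 differences 0.0060 and -0.10). In this complex, grouped after the values were seen, 2 of 4 genes fell, where 18.7% of all genes tested were lower.

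In the ER-to-Golgi complex Stx5a fell and the other 3 genes did not pass. Sec22b, the vesicle SNARE of this step, was listed at 56.2, 58.7 and 55.4 FPKM with siCircGigyf2 and 58.9, 57.4 and 59.8 FPKM with siNC (log2 difference -0.05, SE 0.0333, limma adjusted p = 0.301). Its groups overlapped. Gosr2 and Bet1 had log2 differences of 0.06 and -0.09. On the return route to the ER, Stx18, the ER syntaxin, averaged 16.5 ± 0.149 FPKM with siCircGigyf2 and 18.4 ± 1.11 FPKM with siNC (SD, n = 3), a log2 difference of -0.15 (limma adjusted p = 0.0318). That call was lost without a filter on low values (limma adjusted p = 0.0586) and when any library but siNC replicate 3 was left out (adjusted p from 0.0531 to 0.107). Its partners Use1 and Bnip1 had log2 differences of -0.06 and -0.08 and did not pass.

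Vamp3, cellubrevin, a vesicle SNARE of recycling endosomes that also serves constitutive delivery to the plasma membrane, fell next most. It had 51.6, 47.4 and 49.6 FPKM in siCircGigyf2 libraries, against 71.99, 69.3 and 73.8 FPKM in siNC libraries, a wide gap (log2 difference -0.52, SE 0.0394, limma adjusted p = 3.87e-05). The closely related Vamp1 and Vamp2 rose, as given above. Stx17, the syntaxin of autophagosomes, was low, at 2.11, 2.17 and 2.27 FPKM with siCircGigyf2 and 3.34, 2.93 and 3.07 FPKM with siNC, with no overlap (log2 difference -0.37, SE 0.0704, limma adjusted p = 0.00353). With a pseudocount of 0.1 in place of 1 its log2 difference was -0.49, since the smaller constant compresses low values less. Snap29, which joins Stx17 on autophagosomes, did not pass (log2 difference -0.03).

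The SNAREs of this class that rose belong to endosomes and the trans-Golgi. Stx7, a late endosomal syntaxin, had 35.1, 31.8 and 34.2 FPKM with siCircGigyf2, against 27.2, 26.3 and 28.00 FPKM with siNC (log2 difference 0.30, SE 0.0440, limma adjusted p = 0.000889). Vamp8, its vesicle partner in late endosomes, which also meets Stx17 on autophagosomes, stood at 6.14, 8.69 and 7.08 FPKM after the circGigyf2 siRNA, against 4.54, 5.81 and 4.80 FPKM after control siRNA (log2 difference 0.45, SE 0.115, limma adjusted p = 0.014). The Vamp8 groups were separated by little, and the call was lost without a filter on low values (limma adjusted p = 0.0531). Vamp4, the trans-Golgi vesicle SNARE, gave 19.4, 18.8 and 21.1 FPKM with siCircGigyf2 and 16.1, 15.8 and 17.2 FPKM with siNC (log2 difference 0.26, SE 0.0526, limma adjusted p = 0.00481), with no overlap.

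Partners of these SNAREs did not pass. Stx8 and Vti1b of the late endosomal complex had log2 differences of 0.10 and -0.06, and Vti1a and Stx6 of the trans-Golgi complex -0.01 and -0.19. Stx6 passed as lower without siCircGigyf2 replicate 2 (log2 difference -0.26, limma adjusted p = 0.0268) or without siNC replicate 2 (-0.25, 0.0441), and Bet1l without siCircGigyf2 replicate 2 (-0.15, 0.043). Stx16, the trans-Golgi syntaxin, was listed at 65.1, 62.6 and 63.8 FPKM with siCircGigyf2 and 66.4, 65.9 and 66.4 FPKM with siNC, a small gap without overlap that did not pass (log2 difference -0.05, limma adjusted p = 0.169). Stx12, a syntaxin of early and recycling endosomes and the most abundant gene of this class, was listed at 113, 107 and 112 FPKM with siCircGigyf2 and 105, 105 and 109 FPKM with siNC, overlapped and did not pass (log2 difference 0.06, limma adjusted p = 0.174). Snap47, a SNAP-25 relative of intracellular membranes, had a log2 difference of 0.0066. Vamp7, a lysosomal SNARE, was listed at 0 in all 6 libraries, and it was the only member with no GENCODE M21 gene of its symbol. Whether the 0 reflects absent RNA or the annotation behind the deposited values was not tested. Summed FPKM of the 24 genes was 724 to 738 in siCircGigyf2 libraries and 763 to 795 in siNC libraries. Every tested member named Vamp changed (5 of 5, where 38.2% of all genes tested were called): Vamp1, Vamp2, Vamp4 and Vamp8 rose and Vamp3 fell, a statement that held in each alternative analysis run except for Vamp8 without a filter on low values.

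**Figure D3:**
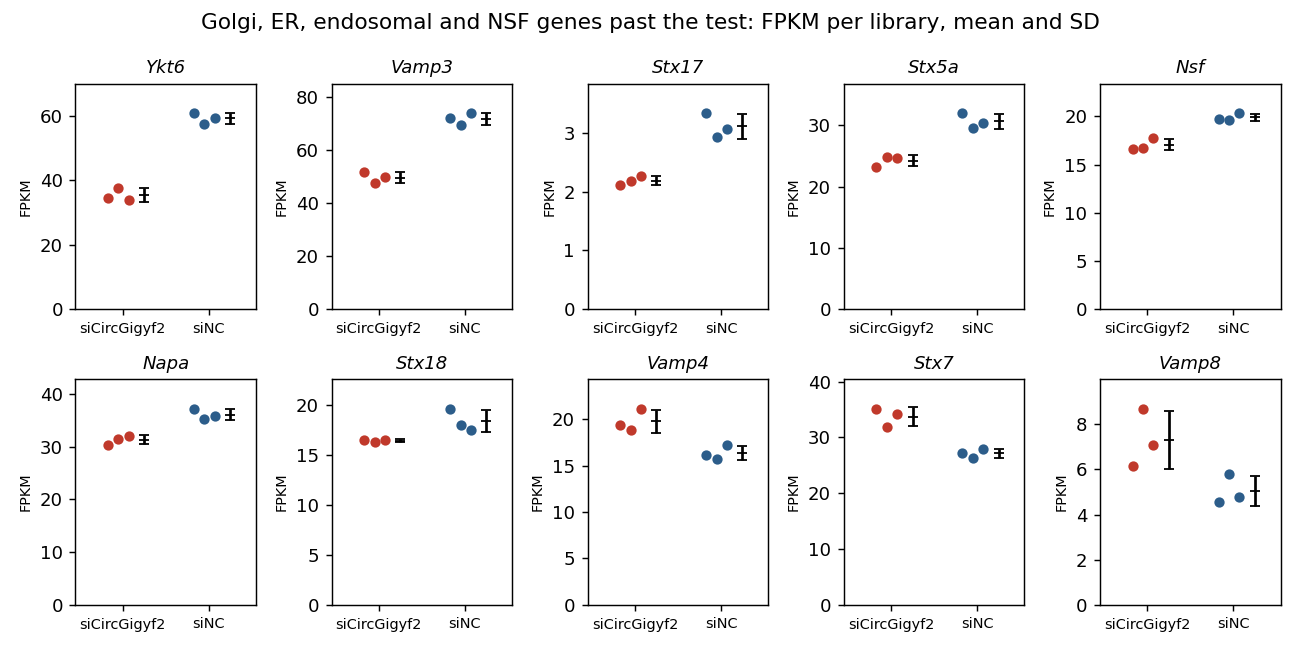
FPKM in each library (points) of the 10 Golgi, ER, endosomal and NSF genes that passed the test, siCircGigyf2 at left and siNC at right in each panel, with the mean and SD of 3 libraries; axes start at 0. The first 7 panels, from Ykt6 to Stx18, show siCircGigyf2 libraries below siNC libraries, and Vamp4, Stx7 and Vamp8 show them above, with the narrowest gap in FPKM between groups for Vamp8.

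The disassembly machinery was lower in part. Nsf, the ATPase, had 16.7, 16.8 and 17.7 FPKM in siCircGigyf2 libraries, against 19.7, 19.6 and 20.3 FPKM in siNC libraries (log2 difference -0.21, SE 0.0394, limma adjusted p = 0.00309). Napa, its main adaptor alpha-SNAP, had 30.4, 31.4 and 32.1 FPKM with siCircGigyf2, against 37.2, 35.3 and 35.9 FPKM with siNC (log2 difference -0.20, SE 0.0357, limma adjusted p = 0.00244). In both genes every siCircGigyf2 library was below every siNC library. Napb, the brain-enriched beta-SNAP, was listed at 9.65, 9.42 and 9.80 FPKM with siCircGigyf2 and 8.66, 8.77 and 9.28 FPKM with siNC, slightly higher without overlap, but did not pass (log2 difference 0.10, limma adjusted p = 0.117). Napg, gamma-SNAP, at 15.3, 15.7 and 15.99 FPKM with siCircGigyf2 and 15.9, 14.7 and 16.98 FPKM with siNC, overlapped and did not pass (log2 difference -0.01, limma adjusted p = 0.871).

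Levels per length ranged from about 2 to over 100 FPKM among the members tested. By mean over the 6 libraries the order began with Syt1 (118 FPKM), Snap25 (112), Stx12 (108), Syt4 (88.0), Vamp1 (77.8) and Stx16 (65.0). In siNC libraries the values of Syt1, Snap25 and Stx12 overlapped, so these leaders were not separated there, whereas in siCircGigyf2 libraries Syt1 was above both. Of the 7 members below the level for testing (Syt5, Syt9, Syt12, Syt13, Stx3, Sv2b and Vamp7), none exceeded 0.332 FPKM in any library.

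**Figure D4:**
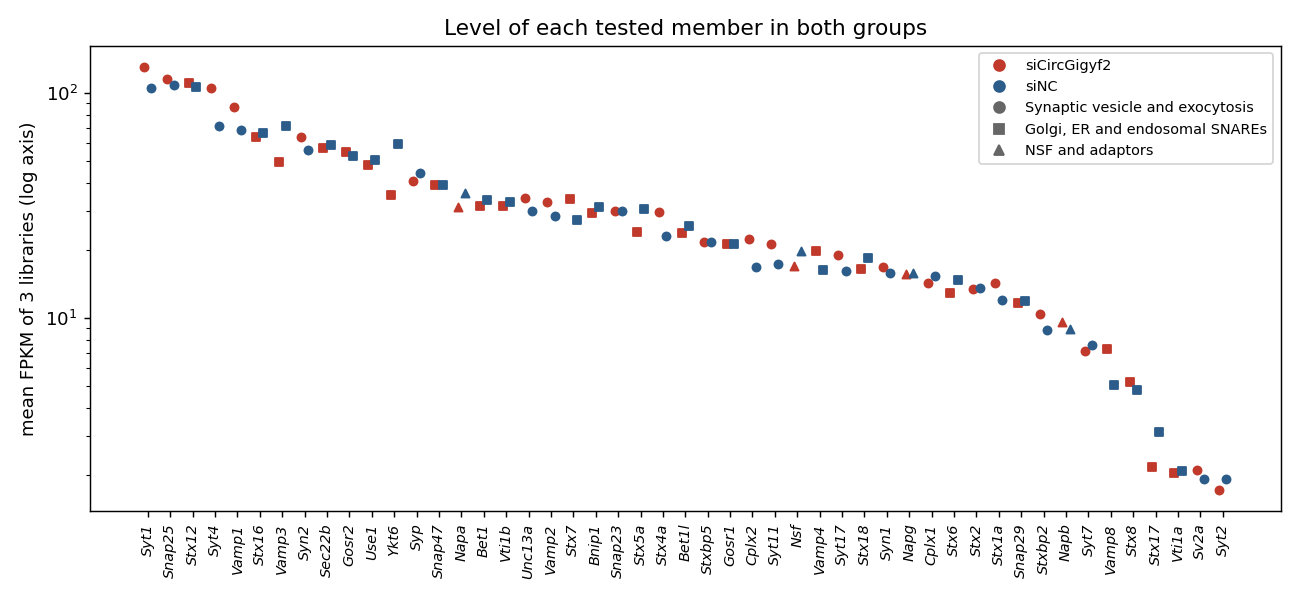
Mean FPKM of 3 libraries (log axis) for the 49 members tested, in order of their mean over all libraries; red is siCircGigyf2 and blue siNC, circles are exocytosis genes, squares Golgi, ER and endosomal SNAREs and triangles NSF and its adaptors. The widest vertical gaps are those of Ykt6 (35.4 against 59.2 FPKM) and Syt4 (104.9 against 71.1 FPKM).

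Other genes of the same pathway were read from a list of 94 that holds none of the members: active zone and priming factors, further relatives of the synaptotagmins and vesicle proteins, vesicle recycling genes and SNARE-binding factors of the Golgi and endosomes. Of 61 tested, 22 rose and 8 fell (49.2% called, where 38.2% of all genes tested were called), with a median log2 difference of 0.05. Active zone and priming genes gave 6 rises and 4 falls among 20, further family members 6 and 2 among 12, recycling genes 7 and 2 among 19, and the Golgi and endosomal factors 3 and 0 among 10. The 8 with the largest differences included further relatives of members. Syngr3, a synaptogyrin of the vesicle membrane, averaged 18.1 ± 0.394 FPKM with siCircGigyf2 and 11.9 ± 0.396 FPKM with siNC (SD, n = 3), Syt14 21.6 ± 0.498 and 14.7 ± 0.505 FPKM, and Sv2c, the most abundant Sv2 gene here, 84.5 ± 0.342 and 65.5 ± 1.27 FPKM. All rose, with log2 differences of 0.57, 0.52 and 0.36 (limma adjusted p = 3.26e-05, 4.11e-05 and 4.11e-05).

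Dnm3, a dynamin that cuts vesicles from the membrane, averaged 7.33 ± 0.770 FPKM with siCircGigyf2 and 4.13 ± 0.124 FPKM with siNC (log2 difference 0.69, limma adjusted p = 0.000166). Erc2, an active zone scaffold, averaged 4.10 ± 0.255 FPKM with siCircGigyf2 and 2.53 ± 0.336 FPKM with siNC (log2 difference 0.53, limma adjusted p = 0.00126), and Itsn2, an endocytic scaffold, 18.7 ± 0.879 and 14.7 ± 1.45 FPKM (log2 difference 0.33, limma adjusted p = 0.00416). These 3 rose with no overlap of the groups. Stx19 lay at the threshold (log2 difference 0.37, limma adjusted p = 0.0496) with overlapping libraries, and 8 of the 13 alternatives that could test it lost the call. Rab3c, a GTPase of secretory vesicles, was the only one of the 8 to fall, to 40.5 ± 1.55 FPKM with siCircGigyf2, against 53.4 ± 1.04 FPKM with siNC (log2 difference -0.39, limma adjusted p = 8.43e-05).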

How the data were processed

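RNA from 3 CAD libraries with siRNA against circGigyf2 and 3 with control siRNA was depleted of ribosomal RNA and sequenced as paired reads, per the labels' protocols. The deposited table gives FPKM, which the authors computed per gene; per the submitters' processing notes the build was mm9. The sources used here give no aligner, quantifier or annotation. Columns were matched to samples by title, and groups came from the treatment labels. The labels do not say that replicates came from separate cultures. The p-values then reflect variation among these libraries alone, possibly technical in origin.

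The fit used limma 3.58.1 (R 4.3.3): log2(FPKM + 1), mean FPKM of at least 1, two-sided moderated tests with a variance trend, Benjamini-Hochberg over 11420 genes. On simulated data for this comparison (11420 genes) 50.7% of changes of 1.2-fold were found, 92.5% of those of 1.5-fold and 100% of those of 2-fold. There 7 of 169 calls were false. The simulation planted changes in far fewer genes than the 4367 called in these data, and its noise was independent between genes. Its rates of detection and of false calls may therefore not hold for the real fit. The members, their classes and the gene lists were chosen with earlier results of these data known. Members past the test with an absolute log2 difference of at least 0.2, the 4 most abundant of each class and the core SNARE genes are given per library, others by mean or difference; of the pathway list, the 8 genes with the largest differences past the test are named. The groupings into SNARE complexes were made after the values were seen. At most 0.0068% of nonzero values were identical in any 2 libraries. The word search took, for each gene, the longest coding sequence with a stop codon and a 3' UTR in GENCODE M21 (GRCm38, not mm9). Genes were joined by symbol (55 of 56 members, all but Vamp7), in Python 3.11.15.

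Other settings tried were Vamp3, Vamp7 and Vamp8 counted with exocytosis, each library left out, a 0.1 pseudocount, a filter of 5 FPKM or none, scaling by median of ratios, quantile normalization, a replicate block, a fit with no trend, and a robust one.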

Additional observations from a re-analysis of the deposited data

How the results depend on the processing

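Of the 22 members that passed, 20 kept their direction and passed under every alternative that could test them; the exceptions were Stx18 and Vamp8, as given with their values. The count of exocytosis genes that fell was 0 to 1 when a library was left out, the 1 being Syp without siCircGigyf2 replicate 2, and 1 (Vamp3) when Vamp3, Vamp7 and Vamp8 were counted with exocytosis. The class medians were 0.17 to 0.20 (exocytosis) and -0.07 to -0.03 (Golgi, ER and endosomal) over the alternatives, except that the exocytosis median was 0.09 without a filter on low values, where its 6 genes near 0 FPKM enter. Some members that did not pass changed sign when a library was left out: log2 differences ran from -0.054 to 0.030 for Stx2, -0.0201 to 0.033 for Snap23, -0.0171 to 0.00945 for Stxbp5, -0.062 to 0.011 for Snap29, -0.0125 to 0.042 for Snap47, -0.019 to 0.047 for Gosr1, -0.054 to 0.017 for Vti1a and -0.0648 to 0.035 for Napg. Stxbp5 was 8.36e-06 with a pseudocount of 0.1, and after quantile normalization Gosr1 was -0.0051 and Vti1a 0.0032. The cause was not tested. In the fit with a replicate block 2047 of all genes were higher and 1926 lower, and the members gave 15 and 7 as before. Same-numbered libraries deviated together with correlations of 0.163, -0.0208 and 0.00253, and not every library correlated best with its own number. Deviations from the means of so few libraries cannot decide whether same-numbered libraries shared a culture or batch. The labels used here give only a replicate number. The 7 members not tested were at most at 0.332 FPKM in any library, and with no read counts at hand what limits them was not tested.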

Other observations

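Of the 4 genes for Rab3 GTPases, which mark secretory vesicles, 3 fell, where 18.7% of all genes tested were lower, and Rab3b did not pass (log2 difference -0.0038, limma adjusted p = 0.982). Besides Rab3c, Rab3a (23.9 ± 0.994 FPKM with siCircGigyf2 against 27.7 ± 0.607 FPKM with siNC; SD, n = 3) and Rab3d (8.93 ± 0.602 against 10.8 ± 0.324 FPKM) fell by 0.21 and 0.25 on the log2(FPKM + 1) scale (limma adjusted p = 0.00372 and 0.00623), whereas Rab27a, another secretory GTPase, averaged 18.5 ± 0.759 FPKM with siCircGigyf2 and 15.2 ± 0.296 FPKM with siNC and rose by 0.26 (adjusted p = 0.00138). Of vesicle coat genes, Ap2s1, the small AP-2 subunit, rose by 0.31 (adjusted p = 0.000146), and Clta, clathrin light chain A, averaged 117 ± 3.12 FPKM with siCircGigyf2 and 138 ± 1.52 FPKM with siNC and fell by 0.23 (adjusted p = 0.000441). Rab3b and these 5 genes were named after their values were seen.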
